A study of Mus musculus with 10 samples.

Results

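The mitochondrial ribosomal protein genes were taken as every protein-coding gene of the count table whose symbol is Mrpl or Mrps followed by a digit. The rule found 78 genes among 52636 gene identifiers, and it used names only, not measured values. Of the 78, 51 encode proteins of the large subunit of the mitochondrial ribosome and 26 of the small subunit. Mrps18a and Mrps30 are counted with the large subunit, where structures of the mammalian ribosome place them. The remaining gene, Mrps36, is known as a component of the oxoglutarate dehydrogenase complex and is kept because its symbol fits the rule.

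The libraries hold total RNA of inguinal fat, a white depot under the skin, from C57BL/6 mice aged 6 months that ate a 65% high-fat diet. Controls, 5 libraries, were TCF7L2F/F mice, whose Tcf7l2 alleles are floxed and whose genotype label reads wild type. Knockouts, also 5, were TCF7L2F/F; Adp-Cre mice, in which a fat-directed Cre recombinase deletes Tcf7l2, the gene of a transcription factor that partners beta-catenin in Wnt signalling. All mice thus carried floxed alleles and ate the same diet, for 16 weeks by the diet label, 12 weeks by the sample descriptions and 4 months by the treatment protocol. Cre acts in fat cells, so transcripts of blood vessel, immune and stromal cells in the whole tissue come from cells that it does not target. No control mice carrying Cre alone were analysed here. Whether each library is a separate mouse is not put in words by the labels; were any not, the p-values would reflect only library-to-library spread, which may be technical.

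Mitochondria keep a small genome whose protein-coding genes all specify subunits of the oxidative phosphorylation complexes. A dedicated ribosome inside the organelle translates them. Its ribosomal RNAs come from the mitochondrial genome, while all of its proteins are encoded in the nucleus, made in the cytosol and imported. Some descend from bacterial ribosomal proteins, and others, here called mitochondria-specific, have no counterpart in the bacterial ribosome. In fat cells, mitochondrial respiration supports fatty acid synthesis and oxidation, and in thermogenic fat it produces heat.

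Total counts lay between 14032866 and 17782073 per library. Tcf7l2 fell from 10.7 ± 0.909 to 5.83 ± 0.311 CPM, the counts scaled to library size by TMM (mean ± SD, n = 5 per group, edgeR adjusted p = 6.15e-04), and its ranges of 9.16 to 11.4 and 5.57 to 6.20 did not overlap. Fat markers were abundant in both groups, with Adipoq at 2990 ± 252 and 2980 ± 432 CPM and Fabp4 at 13300 ± 1530 and 14600 ± 2310 CPM. Along principal component 1 of the 500 genes that varied most, control 5, at 5.99, lay within the knockouts' range of 3.96 to 35.6, while the other controls lay between -22.7 and -12.0, and knockout 1 was at its far end. Library identifiers run through all controls and then all knockouts, so genotype cannot be told apart from handling that followed this order.

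Knockouts were compared with controls to ask which mitochondrial ribosomal protein genes differ when Tcf7l2 is deleted. Of 77 tested, 10 rose, 0 fell and 67 did not pass an edgeR quasi-likelihood test at an adjusted p below 0.05 over all 15927 tested genes. By the same rule 5.84% of all tested genes were called higher and 7.05% lower. The median log2 fold change of the 77 was 0.17, which is 12.7% higher, against 0.0002 over all tested genes. Their log2 fold changes ran from -0.12 to 0.44, and 66 of 77 (85.7%) were above 0, against 50% of all tested genes. An unadjusted p below 0.05 was found for 36 of 77, all of them higher, where 14.8% of all tested genes were higher at that level. DESeq2 called 15 higher (8.24% of all genes) and limma-voom 8 (4.80%), and they called 0 members lower, where 8.51% and 5.53% of all genes were lower. The members' fold changes had a median standard error of 0.077 on the log2 scale, below the 0.111 of all tested genes. In whole tissue, a change in the share of cells of a type and a change in RNA per cell cannot be told apart.

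**Figure D1:**
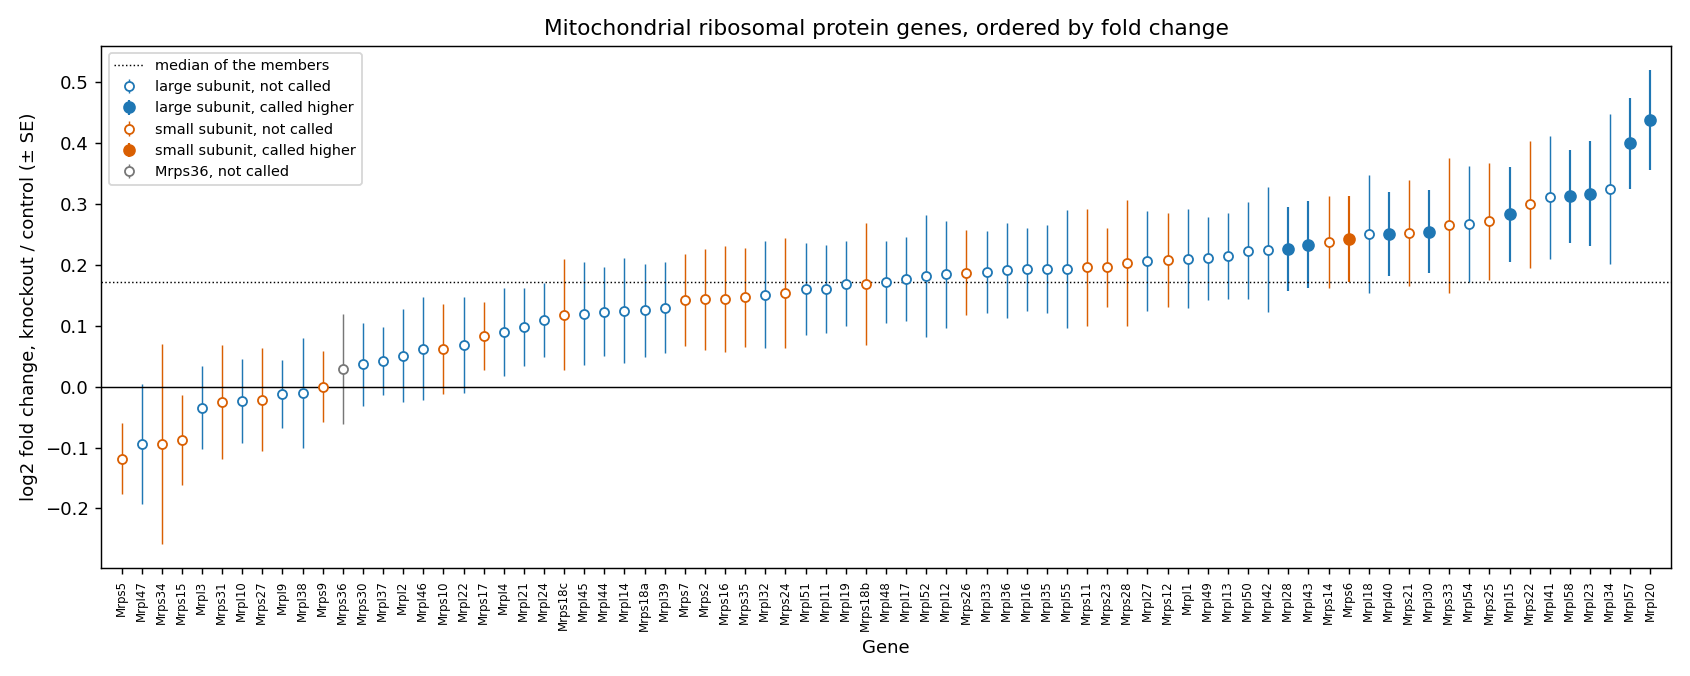
The log2 fold change of knockout over control, with its SE, is drawn for the 77 tested genes in order of size, coloured by subunit, with filled points for the 10 called higher. Values climb from -0.12 for Mrps5 to 0.44 for Mrpl20, and 66 of 77 lie above 0.

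The number called depended on which libraries entered. It was 2 without control 1, control 2 or control 4 (1.43%, 1.41% and 2.41% of all genes called higher), 3 without knockout 5 (2.41%) and 4 without knockout 2 (2.92%). Without control 1, control 2 or control 4 the 2 genes were Mrpl20 and Mrpl57. It was 15 without control 5 (8.57%) and 15 without knockout 1 (6.97%). Leaving out control 5 and knockout 1 together, a setting added after seeing the data, gave 23 (11.1%). Without control 3, knockout 3 or knockout 4 it was 8 (4.54%, 4.37% and 5.15%). In these fits the median log2 fold change stayed between 0.15 and 0.20, and 0 members were called lower.

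The summed level of the 78 genes was 2273, 2307, 2450, 2194 and 2401 CPM for controls 1 to 5, against 2513, 2705, 2519, 2456 and 2893 CPM for knockouts 1 to 5. The groups did not overlap, although knockout 4 exceeded control 3 by little, and knockout 5 and knockout 2 stood highest. The group means were 2325 ± 102 and 2617 ± 180 CPM (SD, n = 5 each), a ratio of 1.13. The number of tested members above their own control median was between 55 and 73 in the knockouts and between 16 and 53 in the controls. Control 3 and control 5, with 53 and 42 members above, were the highest of the controls.

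The same libraries differed in transcripts annotated as intronic or of unconfirmed type, 786 tested genes whose mean log2 CPM gives an intronic-type score. It was 1.08, 1.27, 0.73, 1.2 and 0.38 for controls 1 to 5, against 0.44, 0.22, 0.46, 0.36 and 0.06 for knockouts 1 to 5. Among the knockouts, knockout 5 and knockout 2 had the lowest scores and the highest member sums, 2893 and 2705 CPM. Among the controls, control 5 and control 3 had the lowest scores and the highest member sums, 2401 and 2450 CPM. Control 5, with a score inside the knockouts' range, was below every knockout in member sum. Control 3 was also below them, although knockout 4 was close, at 2456 CPM. With the score added to the model, edgeR called 0 of 77 members in either direction (0.0691% of all genes were called higher and 0.239% lower), 3 were higher and 2 lower at an unadjusted p below 0.05, and the median log2 fold change was 0.04, with 52 of 77 above 0. Only 49 of all tested genes were called in that fit. Since only control 5 lay within the knockouts' range, the score largely follows genotype, and this fit cannot tell score and genotype apart. Of 8 nuclear-retained transcripts examined, 6 were tested, 4 were lower in the knockouts, 0 were higher and 2 were not called. Malat1 and Neat1 were lower, with log2 fold changes of -0.56 and -0.62 (edgeR adjusted p = 0.0217 and 0.0122). They were called in 5 and 10 of the 10 fits that left out 1 library. Gm26917 and Meg3, at 0.10 and -0.28, were not called (edgeR adjusted p = 0.666 and 0.218).

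**Figure D2:**
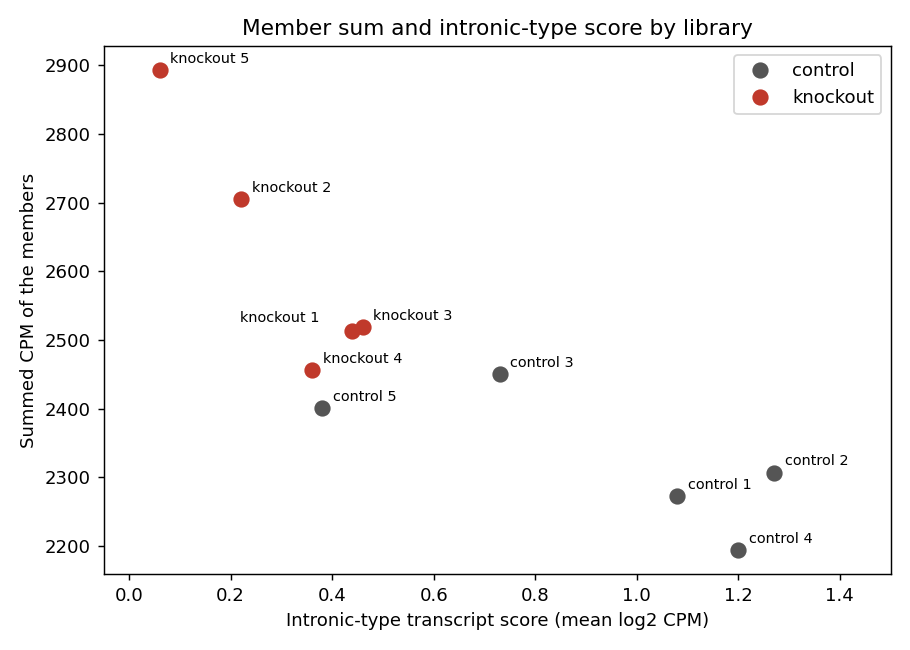
Summed CPM of the 78 genes (vertical axis) is plotted against the intronic-type score in mean log2 CPM (horizontal axis), 1 point per library. Knockouts span 2456 to 2893 CPM at scores of 0.06 to 0.46, and controls 2194 to 2450 CPM at scores of 0.38 to 1.27.

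In the large subunit, 9 of 50 tested genes rose, 0 fell and 41 did not pass, with 45 of 50 above 0 and a median log2 fold change of 0.18. Over all tested genes, 5.84% were called higher. Mrpl20, a protein of bacterial descent, had the largest change. It stood at 52.1, 53.2, 60.5, 55.5 and 65.6 CPM for controls 1 to 5, against 74.7, 83.9, 72.5, 69.8 and 87.8 CPM for knockouts 1 to 5. Every knockout was above every control, and control 5 was the nearest control. Its means were 57.4 ± 5.6 and 77.8 ± 7.73 CPM, which is 0.44 higher on the log2 scale (SE 0.083, adjusted p = 0.0101). Mrpl57, a small mitochondria-specific protein, stood at 23.8, 21.3, 27.1, 22.2 and 24 CPM for controls 1 to 5, against 30.3, 30.4, 31.4, 29.5 and 34.6 CPM for knockouts 1 to 5. Those groups did not overlap either, and the log2 fold change was 0.40 (SE 0.075, adjusted p = 0.0101). Mrpl20 and Mrpl57 passed whichever library was left out (10 of 10 fits, adjusted p up to 0.0389 and 0.0352), and no other member did. Mrpl20 lies on chromosome 4 (155802878 to 155809975, plus strand of GRCm38) and Mrpl57 on chromosome 14 (57826234 to 57829296, plus strand).

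Mrpl58, also known as Ict1, is a peptidyl-tRNA hydrolase that became a fixed part of the large subunit and can release stalled ribosomes. Its level was 21.5, 20.2, 21.7, 21.8 and 23.4 CPM for controls 1 to 5, against 25.4, 25.7, 25.3, 26.9 and 31.7 CPM for knockouts 1 to 5, again without overlap. The log2 fold change was 0.31 (SE 0.076, adjusted p = 0.0234), and it passed in 7 of 10 leave-one-out fits. The gene lies on chromosome 11 (115403752 to 115412674, plus strand). Non-overlapping groups with the knockouts higher were found for 5 of 77 members, the other two being Mrpl49 and Mrps23, where 4.55% of all tested genes had this pattern. The reverse, with the knockouts lower, was found for 0 members and 4.45% of all tested genes. Mrpl49, at 38.7 ± 1.54 and 44.8 ± 4.14 CPM, and Mrps23, at 36.8 ± 2.58 and 42.2 ± 2.5 CPM, had adjusted p of 0.0594 and 0.0649.

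Mrpl30, of bacterial descent, stood at 63.2, 62.1, 67.9, 62.4 and 63.4 CPM for controls 1 to 5, against 75.1, 79.5, 73.5, 66.2 and 86.0 CPM for knockouts 1 to 5, and only knockout 4 lay within the control range. Its log2 fold change was 0.25 (SE 0.068, adjusted p = 0.0323). Mrpl23, which lines the rim of the exit tunnel for the growing peptide, was at 13.8, 15, 16.1, 13.9 and 16.5 CPM for controls 1 to 5, against 20, 16.2, 18.7, 18.5 and 20.5 CPM for knockouts 1 to 5. Knockout 2 was below control 5, the other knockouts were above all controls, and the log2 fold change was 0.32 (SE 0.086, adjusted p = 0.0343). Mrpl40, a mitochondria-specific protein, was at 37.2, 36.6, 39.8, 35.6 and 40.3 CPM for controls 1 to 5, against 39.7, 46.3, 45.3, 44.2 and 50.2 CPM for knockouts 1 to 5. Knockout 1 fell within the control range, and the log2 fold change was 0.25 (SE 0.069, adjusted p = 0.0345). Leave-one-out fits called these genes 5, 4 and 3 times of 10. They lie on chromosome 1 (37890477 to 37898535, plus strand), chromosome 7 (142532686 to 142540747, plus) and chromosome 16 (18872018 to 18876862, minus).

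Mrpl15 rose from 33.4 ± 1.75 to 40.6 ± 4.66 CPM (adjusted p = 0.0364), Mrpl28 from 34.7 ± 2.11 to 40.6 ± 3.16 CPM (adjusted p = 0.0472) and Mrpl43 from 29.2 ± 2.22 to 34.4 ± 2.44 CPM (adjusted p = 0.04997). All 3 had overlapping groups, and leave-one-out fits called them 3, 3 and 1 times of 10. Mrpl28 and Mrpl43 also missed the threshold in limma-voom (adjusted p = 0.0562 and 0.0590), with total counts alone, with no filter, with a stricter filter, with offsets for length and GC content and with 1 surrogate variable. The offsets also ended the calls of Mrpl23, Mrpl40 and Mrps6, and the surrogate variable those of Mrpl23 and Mrps6. Mrpl15, Mrpl28 and Mrpl43 lie on chromosome 1 (4773206 to 4785739, minus strand), chromosome 17 (26123500 to 26126613, plus) and chromosome 19 (45004829 to 45006442, minus). Mrpl43 was the last member inside the threshold, and the first outside it was Mrps14 of the small subunit, at 33.1 ± 2.61 and 39.0 ± 3.27 CPM (adjusted p = 0.0565). For Mrpl43, 33.4% of the exonic bases are shared with Twnk, the gene of the mitochondrial DNA helicase on the opposite strand, which stood at 9.08 ± 0.877 and 8.53 ± 1.30 CPM (adjusted p = 0.636). No source used here gives the strand setting of the counting, so reads of such pairs could have been assigned to either or to none.

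**Figure D3:**
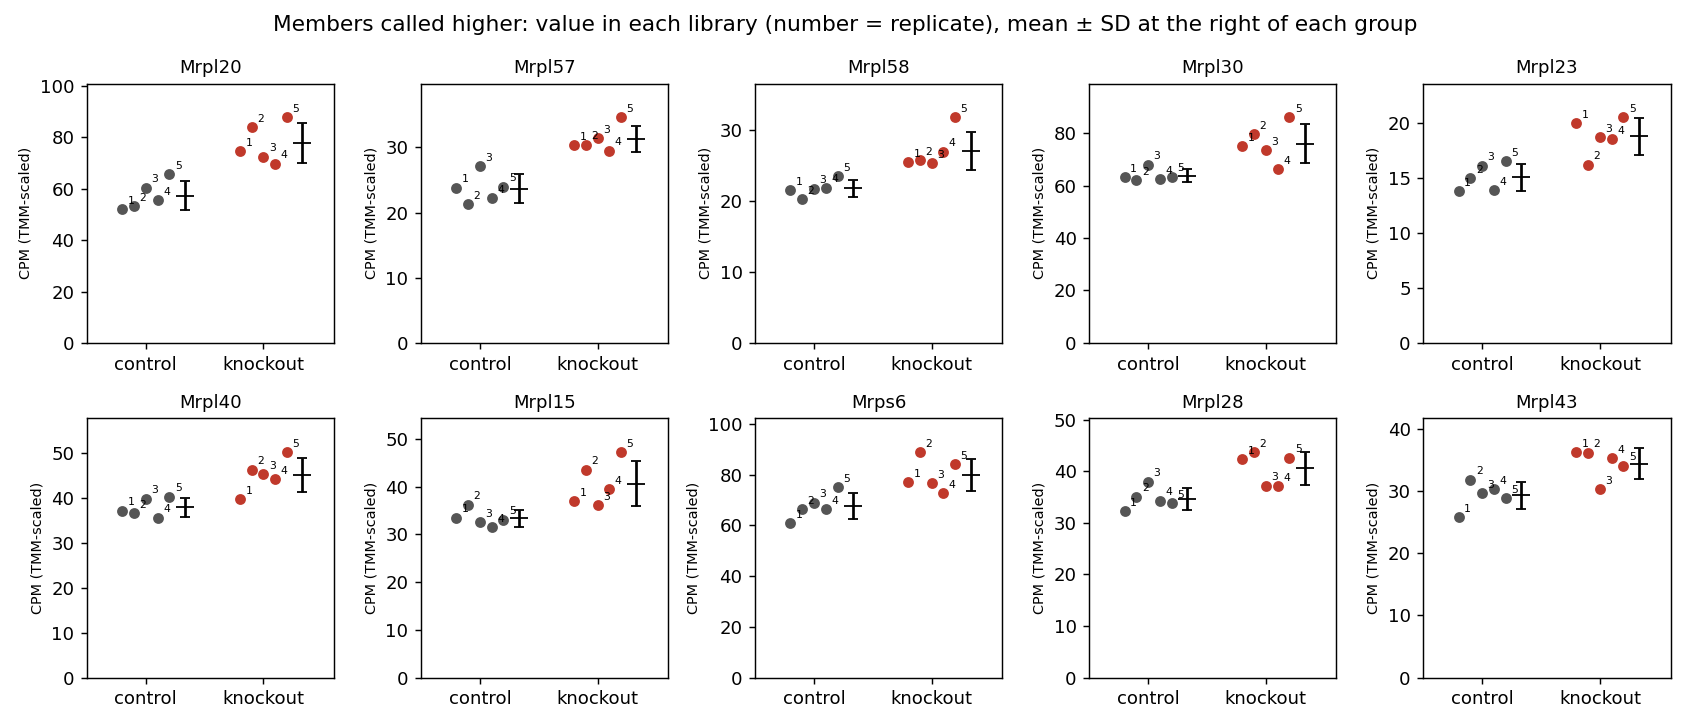
CPM in each library is plotted for the 10 members called higher, numbered by replicate, with mean ± SD to the right of each group (n = 5). Groups are separate for Mrpl20, Mrpl57 and Mrpl58 and overlap in the other 7 panels.

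Several members of the large subunit with known roles did not pass. Mrpl12, which forms part of the flexible stalk and also binds the mitochondrial RNA polymerase, was at 19.9 ± 1.56 and 22.6 ± 2.58 CPM (adjusted p = 0.176). Mrpl10, the base of that stalk, was at 43.0 ± 2.47 and 42.3 ± 3.52 CPM (log2 fold change -0.02, SE 0.069). Mrpl45, which helps to hold the ribosome at the inner membrane, was at 35.5 ± 2.65 and 38.6 ± 4.59 CPM (adjusted p = 0.359). Mrpl34 had a log2 fold change of 0.32, larger than that of 8 called members, with an SE of 0.123 and an adjusted p of 0.0947. Its controls ran from 16.8 to 22 CPM and its knockouts from 19.1 to 32 CPM, and knockout 5 was the highest.

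In the small subunit, 1 of 26 tested genes rose, 0 fell and 25 did not pass, with 20 of 26 above 0 and a median log2 fold change of 0.15. The share called higher over all tested genes was 5.84%. The gene that rose was Mrps6, a protein of bacterial descent, from 67.5 ± 5.1 to 79.8 ± 6.48 CPM, a log2 difference of 0.24 (SE 0.071, adjusted p = 0.0422). Its controls ran from 60.8 to 74.9 CPM and its knockouts from 72.7 to 88.8 CPM, so the groups overlapped, and it passed in 3 of 10 leave-one-out fits. It lies on chromosome 16 (92058270 to 92112227, plus strand). Its exons overlap those of Slc5a3, an inositol transporter gene, over 19.9% of their length, counted with a further annotated gene, and Slc5a3 stood at 361 ± 47.1 and 333 ± 26.4 CPM (adjusted p = 0.409). Mrps12, part of the decoding centre, was at 20.8 ± 1.70 and 24.1 ± 1.83 CPM (adjusted p = 0.0912). Mrps22 and Mrps16, both disease genes of mitochondrial translation in humans, had adjusted p of 0.0731 and 0.283, at log2 fold changes of 0.30 and 0.14. Whether the subunits differed was not tested.

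The 11 members with a log2 fold change below 0 all failed the test. The lowest was Mrps5, of the small subunit, at 32.5 ± 1.21 CPM in the controls and 29.9 ± 1.6 CPM in the knockouts (log2 fold change -0.12, SE 0.058, adjusted p = 0.186). Mrpl47, Mrps34, Mrps15 and Mrpl3 followed at -0.09, -0.09, -0.09 and -0.03, with adjusted p between 0.440 and 0.764. Mrps34 had the lowest level of the tested members, 4.02 ± 0.786 and 3.77 ± 0.505 CPM, and 77.8% of its exonic bases are shared with Mapk8ip3 and Nme3. Mapk8ip3 fell, with a log2 fold change of -0.43 (adjusted p = 0.0215), and Nme3 was at 0 counts in all 10 libraries. The related genes Mrps18a, Mrps18b and Mrps18c, whose products hold different places in the ribosome, stood at log2 fold changes of 0.13, 0.17 and 0.12 (adjusted p between 0.268 and 0.403). Mrps36 was at 9.78 ± 0.878 and 9.98 ± 0.454 CPM (adjusted p = 0.859).

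The members were also split by whether they belong to a bacterial ribosomal protein family, and Mrpl58 is counted with those that do not. Of 47 tested members of bacterial ribosomal protein families, 6 rose and 40 were above 0, with a median log2 fold change of 0.17. Of 29 tested mitochondria-specific members, 4 rose and 25 were above 0, with a median of 0.19. By the same test, 5.84% of all tested genes were called higher. Whether the classes differed was not tested. Across the 77 tested members, which share the same libraries, the log2 fold change had a Spearman rho of -0.17 with exonic length and of 0.29 with mean CPM.

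Levels per length differed widely among the members. Divided by exonic length, over all libraries, Mrps21 had 65.7, Mrpl54 50 and Mrps6 48.0 CPM per kb, against a median of 11.6 CPM per kb. The lowest were Mrpl47 at 2.51 and Mrps34 at 1.89 CPM per kb, and Mrpl53 at 0. The length used is the union of all annotated exons, which lowers the value of genes with long rare isoforms. Mrpl53 had 0 counts in all 10 libraries, which allows up to 3 counts, or 0.172 to 0.205 CPM, in each. The annotation shares 88.0% of its exonic bases with Gm42688, at 0.660 to 1.42 CPM, and Ccdc142os, at 0.243 to 0.828 CPM. Whether Mrpl53 differed between the groups could not be detected from these counts.

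The 78 genes lie on 17 chromosomes. For 19 of them, a named protein-coding gene starts on the other strand, at most 1000 bases upstream or 100 bases downstream of their own start. Pairs whose starts overlap further, such as Mrpl43 and Twnk, are not counted. Among the 19 partners, 18 were tested, 2 were called higher, 0 lower, and 12 were above 0, with a median log2 fold change of 0.06. Over all tested genes, 5.84% were called higher and 7.05% lower. DESeq2 and limma-voom also called 2 partners higher and 0 lower. They called 8.24% and 4.80% of all genes higher, and 8.51% and 5.53% lower. At an unadjusted p below 0.05, 1 partner was lower. Fau, a cytosolic ribosomal protein gene that starts 59 bases from Mrpl49, rose from 160 ± 7.05 to 195 ± 25.5 CPM (adjusted p = 0.0369). Psma2, a proteasome subunit gene that starts 75 bases from Mrpl32, rose from 118 ± 9.38 to 140 ± 11.4 CPM (adjusted p = 0.0368), while Mrpl32 was at 36.4 ± 2.51 and 40.5 ± 5.30 CPM (adjusted p = 0.259). Among the called members, Mrpl57 faces Ska3 (log2 fold change 0.08, adjusted p = 0.765), Mrpl30 faces Mitd1 (0.04, adjusted p = 0.796) and Mrpl40 faces Hira (-0.18, adjusted p = 0.389).

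Promoter windows of RefSeq on GRCm38.p6, from 250 bases before to 50 after the start, matched 69 of the 78 genes. They were searched on both strands for CCGGAAG, a core of sites for ETS family factors such as GABPA, for GCGC and TGCGC separated by any 1 base, a site form of NRF1, and for AAGATGGC, a core of YY1 sites. These factors are known regulators of nuclear genes for mitochondrial proteins. The ETS core was present in 26 of 69 members (37.7%), against 19% of 10590 tested protein-coding genes and 9.93% of all 27025 genes with a window. The NRF1 form was present in 13 (18.8%, against 10.9% and 5.19%) and the YY1 core in 12 (17.4%, against 4.96% and 3.19%). Any of the 3 was present in 43 members (62.3%, against 30.6% and 16.4%). Of 9 called members with a window, 3 held the ETS core, 2 the NRF1 form and 0 the YY1 core, 4 in all holding any. The median GC content of the windows was 58.7% for the members and 60.3% for the tested protein-coding genes. The 4 called members with a match are shown with Mrpl20, the member of largest change, which has none. Capitals mark the matches, and each line runs 5′ to 3′ on the strand of the gene. The windows are chr14:57825989-57826288 (plus strand), chr11:115403502-115403801 (plus), chr1:37890227-37890526 (plus), chr19:45006393-45006692 (minus) and chr4:155802628-155802927 (plus).
Mrpl57: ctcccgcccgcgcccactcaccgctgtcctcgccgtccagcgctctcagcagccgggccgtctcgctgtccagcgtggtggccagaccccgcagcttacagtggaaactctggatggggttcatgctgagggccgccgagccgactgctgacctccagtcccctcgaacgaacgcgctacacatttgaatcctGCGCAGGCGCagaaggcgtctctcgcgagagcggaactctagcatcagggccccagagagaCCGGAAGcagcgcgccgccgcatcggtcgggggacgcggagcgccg
Mrpl58: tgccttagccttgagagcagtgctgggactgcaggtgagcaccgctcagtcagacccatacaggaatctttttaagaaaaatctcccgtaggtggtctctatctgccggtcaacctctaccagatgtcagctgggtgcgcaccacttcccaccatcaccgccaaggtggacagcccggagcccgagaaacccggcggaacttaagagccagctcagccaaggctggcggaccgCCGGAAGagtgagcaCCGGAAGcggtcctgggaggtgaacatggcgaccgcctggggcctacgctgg
Mrpl30: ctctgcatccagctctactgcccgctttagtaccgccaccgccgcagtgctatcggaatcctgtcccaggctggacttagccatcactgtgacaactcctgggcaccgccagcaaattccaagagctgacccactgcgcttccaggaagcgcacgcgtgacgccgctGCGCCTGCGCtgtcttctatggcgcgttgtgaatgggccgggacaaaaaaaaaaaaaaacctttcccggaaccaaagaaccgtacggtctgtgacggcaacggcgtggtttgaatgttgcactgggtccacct
Mrpl43: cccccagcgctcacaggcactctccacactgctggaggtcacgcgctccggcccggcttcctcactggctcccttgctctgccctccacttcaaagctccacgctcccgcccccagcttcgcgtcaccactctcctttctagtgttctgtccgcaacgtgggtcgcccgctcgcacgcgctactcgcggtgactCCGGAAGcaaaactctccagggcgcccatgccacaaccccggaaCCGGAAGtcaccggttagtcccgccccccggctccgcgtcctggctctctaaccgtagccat
Mrpl20: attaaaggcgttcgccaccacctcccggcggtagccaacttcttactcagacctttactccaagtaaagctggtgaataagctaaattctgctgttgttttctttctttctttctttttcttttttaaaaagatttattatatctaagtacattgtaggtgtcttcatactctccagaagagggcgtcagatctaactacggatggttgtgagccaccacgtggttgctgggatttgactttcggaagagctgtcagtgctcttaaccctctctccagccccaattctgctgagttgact
Mrpl57 carries 1 ETS core past its start, at position 5, and an NRF1 form 57 bases before it. Mrpl58 carries ETS cores that begin 17 and 2 bases before its start, and Mrpl43 carries them 56 and 12 bases before. In Mrpl30 the NRF1 form begins 83 bases before the start. A match is a run of letters and does not show binding.

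The 3 factors themselves were not called. Gabpa was at 81.3 ± 6.54 and 82.4 ± 6.23 CPM (adjusted p = 0.884) and Nrf1 at 23.7 ± 0.608 and 23.1 ± 3.10 CPM (adjusted p = 0.796). Yy1 was at 75.1 ± 4.65 and 82.3 ± 4.58 CPM (log2 fold change 0.13, SE 0.060, adjusted p = 0.156). Ppargc1a, a coactivator that drives mitochondrial biogenesis, was at 5.67 ± 1.67 and 3.81 ± 0.917 CPM (log2 fold change -0.57, SE 0.223, adjusted p = 0.103). Esrra, a nuclear receptor that works with that coactivator, was at 23 ± 2.79 and 27.8 ± 2.46 CPM (log2 fold change 0.27, SE 0.094, adjusted p = 0.0703). Of 10 regulators of mitochondrial biogenesis, edgeR called 0 in either direction, DESeq2 called 1 higher and limma-voom 0, and the median log2 fold change was -0.03. An unadjusted p below 0.05 was found for 3 of the 10 (Yy1, Ppargc1a and Esrra), and for 31.0% of all tested genes.

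Genes that build and serve the mitochondrial ribosome were counted in the same fit, in which 5.84% of all tested genes were called higher and 7.05% lower. The mitoribosome has 5 proteins listed under other symbols, Dap3, Ptcd3, Chchd1, Aurkaip1 and Gadd45gip1, and edgeR called 0 of them, while DESeq2 and limma-voom also called 0 and 0 had an unadjusted p below 0.05 (median log2 fold change 0.06). Of these, Dap3 was at 53.1 ± 2.60 and 55.3 ± 3.21 CPM (adjusted p = 0.520), and Chchd1 had the largest log2 fold change, 0.17 (SE 0.090, adjusted p = 0.231). Of 27 genes of mitoribosome assembly and rRNA modification, 1 rose, 1 fell and 25 did not pass (median 0.08). Mterf3, which restrains mitochondrial transcription and is needed for ribosome biogenesis, fell from 27.7 ± 2.87 to 21.9 ± 1.57 CPM, a log2 difference of -0.34 (SE 0.081, adjusted p = 0.0227). Rbfa, which helps mature the small subunit's ribosomal RNA, rose from 25.2 ± 1.56 to 29.0 ± 1.17 CPM (adjusted p = 0.0468). Leave-one-out fits called them 6 and 2 times of 10.

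Of 15 mitochondrial translation factors, edgeR called 0, as did DESeq2 and limma-voom, and 0 had an unadjusted p below 0.05 (median 0.03). Tufm, the elongation factor that brings aminoacyl-tRNA to the ribosome, was at 48.7 ± 2.98 and 51.4 ± 5.92 CPM (adjusted p = 0.554). Of 17 mitochondrial aminoacyl-tRNA synthetases, 1 rose and 16 did not pass (median -0.05). Vars2, the valine enzyme, rose from 12.4 ± 0.202 to 15 ± 1.46 CPM (adjusted p = 0.0466), and was called in 1 of 10 leave-one-out fits. Of 13 genes of mitochondrial DNA transcription and replication, edgeR called 0, 2 had an unadjusted p below 0.05, and DESeq2 and limma-voom called 0 (median 0.06). Tfam, which packages mitochondrial DNA and starts its transcription, was at 31.1 ± 2.45 and 35.2 ± 1.70 CPM (log2 fold change 0.18, adjusted p = 0.0896), and Polrmt, the RNA polymerase, was at 13.6 ± 1.31 and 14.9 ± 1.05 CPM (adjusted p = 0.357). The 2 genes at an unadjusted p below 0.05 were Tfam and Mterf2, a regulator of mitochondrial transcription, which was at 9.71 ± 0.887 and 8.25 ± 0.949 CPM (log2 fold change -0.24, adjusted p = 0.149).

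The products of the mitochondrial ribosome are the mitochondrially encoded proteins, and 10 of their 13 genes passed the filter on low counts. Of these, 0 rose, 2 fell and 8 did not pass, with a median log2 fold change of -0.44. That median counts each gene alike, including mt-Co3 at 2.43 and 1.56 CPM and mt-Nd3 at 8.64 and 5.94 CPM. By level, mt-Co1, mt-Nd1 and mt-Cytb stood highest, at log2 fold changes of -0.10, -0.11 and -0.41. Summed levels of the 13 genes overlapped, at 15100 to 27600 CPM in the controls and 16000 to 25800 CPM in the knockouts. The ratio of their means was 0.897. The complex I subunit genes mt-Nd4 and mt-Nd6 fell, with log2 fold changes of -0.54 and -0.68 (adjusted p = 0.0458 and 0.0482). DESeq2 called 4 of the 10 lower and limma-voom 0. Without control 4 edgeR called 4, without knockout 1 or knockout 5 it called 1, and without any of the other 7 libraries it called 0. With the intronic-type score in the model it called 0, and the median was -0.74. The most abundant, mt-Co1, was at 14900 ± 3100 and 13900 ± 2810 CPM, while mt-Co2 was at 0.909 ± 0.344 and 1.12 ± 0.265 CPM and mt-Atp6 at 0.578 ± 0.126 and 0.480 ± 0.162 CPM, which are known as abundant transcripts. How reads with several matches were treated is not stated in any source used here.

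Nuclear genes of oxidative phosphorylation and of the cytosolic ribosome were compared as the nearest functional groups, where 5.84% of all tested genes were called higher. Of 76 nuclear oxidative phosphorylation genes, 5 rose, 0 fell and 71 did not pass, with 70 of 76 above 0 and a median of 0.14. DESeq2 called 9 higher and limma-voom 2, and without 1 library the count ran from 0 (without control 1, 2 or 4 or knockout 2 or 5) to 12 (without knockout 4). Ndufa11, a complex I subunit gene, rose from 40.8 ± 3.39 to 51.9 ± 6.19 CPM (adjusted p = 0.0248). Of 78 cytosolic ribosomal protein genes, 34 rose, 0 fell and 44 did not pass, with 76 of 78 above 0 and a median of 0.27. DESeq2 called 57 higher and limma-voom 30, and without 1 library the count ran from 1 (without control 1 or 2) to 53 (without control 5). With the intronic-type score in the model, 0 of both groups were called and the medians were 0.02 and 0.17. Whether these groups differed from the mitochondrial ribosomal protein genes was not tested.

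**Figure D4:**
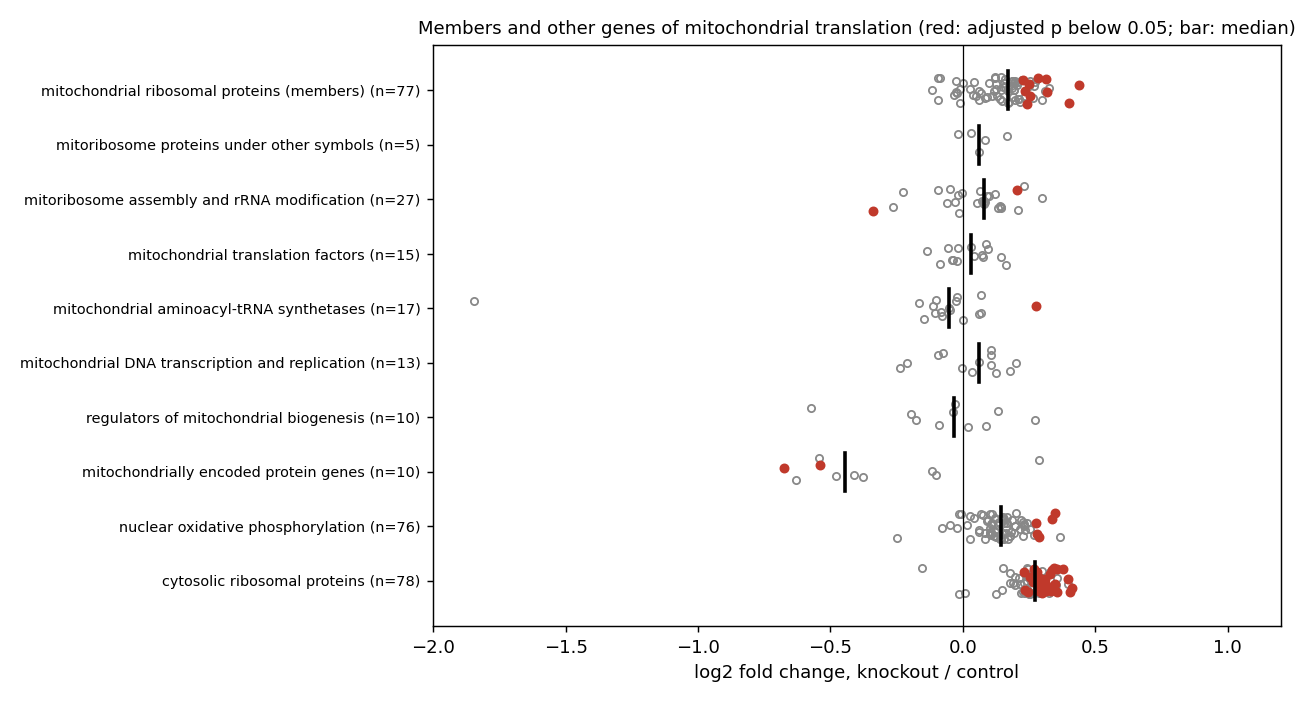
The log2 fold change of knockout over control is plotted for each tested gene of the members and of 9 other lists, with red points for an adjusted p below 0.05 and a bar at the median. Medians are 0.17 for the members, 0.27 for cytosolic ribosomal proteins, 0.14 for nuclear oxidative phosphorylation and -0.44 for mitochondrially encoded genes.

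Markers of some other cell types moved with the groups, in the edgeR fit that called 5.84% of all tested genes higher and 7.05% lower. Macrophage markers, 12 in all, had 0 called by edgeR, DESeq2 or limma-voom and 0 at an unadjusted p below 0.05. Their summed levels overlapped, at 2560 to 3310 CPM in the controls and 2660 to 3060 CPM in the knockouts. Of 12 endothelial markers, 11 were lower, with summed levels of 1150 to 1470 CPM in the controls and 933 to 1100 CPM in the knockouts. Of 12 T cell markers 7 were higher (19.1 to 36.5 and 26.6 to 177 CPM), and of 10 B cell markers 5 were higher (14.4 to 34.7 and 23.2 to 488 CPM), with the upper ends in knockout 1. DESeq2 called 8 T cell and 3 B cell markers higher (8.24% of all genes), and limma-voom 0 of both (4.80%). Without knockout 1, T and B cell markers were called in 6 and 2 cases, and 15 mitochondrial ribosomal protein genes were called. Without control 1, 2 or 4, 0 T or B cell markers were called. The endothelial count ran from 4 (without control 1) to 12 (without control 5). Of 14 proliferation markers, 1 was higher, Pcna, which was called in 4 of 10 leave-one-out fits. All 14 were above 0, with a median log2 fold change of 0.24. An unadjusted p below 0.05 was found for 10 of them, and for 31.0% of all tested genes. DESeq2 called 3 of the 14 higher and limma-voom 1. Summed levels of the 14 were 263 to 328 CPM in the controls and 339 to 371 CPM in the knockouts. Of 15 mature adipocyte markers, 1 was higher and 5 lower, with summed levels of 52200 to 62800 and 51200 to 65500 CPM. Of 9 brown and beige adipocyte markers, a cell type rich in mitochondria, 8 were tested, and Dio2, Elovl3 and Otop1 rose while Cidea fell, by edgeR, DESeq2 and limma-voom alike. Their summed levels were 69.9 to 102 CPM in the controls and 95.2 to 145 CPM in the knockouts, so the groups overlapped. They were highest in knockout 2 and knockout 5, at 144 and 145 CPM, the libraries that also had the highest member sums. Control 1, at 102 CPM, was above knockout 1 and knockout 4, at 96.0 and 95.2 CPM. Its member sum of 2273 CPM was below their 2513 and 2456 CPM. The thyroid hormone activating enzyme gene Dio2 went from 3.69 ± 0.557 to 14.6 ± 5.27 CPM (adjusted p = 6.69e-04), and Dio2, Elovl3 and Otop1 were called whichever library was left out. Cidea, a lipid droplet protein, fell from 13.5 ± 4.00 to 6.23 ± 2.36 CPM (adjusted p = 0.0218), and was not called without control 1 or control 2. With the intronic-type score in the model, 0 of the 8 were called. Ucp1, the defining protein of thermogenic fat, was at 2.41 ± 1.34 and 4.65 ± 2.85 CPM (adjusted p = 0.182). Skeletal muscle markers, a tissue rich in mitochondria, had 10 of 12 tested and 0 called by edgeR, with 0 at an unadjusted p below 0.05. All 10 were above 0, with a median log2 fold change of 1.49. Summed levels of the 12 overlapped, at 25.3 to 569 CPM in the controls and 42.9 to 786 CPM in the knockouts, with a ratio of means of 2.23. Without control 5, which held 569 CPM of these transcripts, 7 were higher. The muscle marker Tnnc2 was at 0 in all libraries. Mylpf, Ckm and Tnnt3 of the same list had means of 6.83, 10.3 and 12.2 CPM in the controls and 23.5, 31.7 and 39.9 CPM in the knockouts. Why Tnnc2 had no counts was not tested. No marker of the endothelial, T cell, B cell, proliferation and both adipocyte lists was at 0 in all libraries. The part of endothelial, lymphocyte, macrophage, proliferation, white, brown or beige adipocyte and muscle transcripts in the result was not tested.

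The count of mitochondrial ribosomal protein genes called higher was also taken under other settings. It was 10 with DESeq2 size factors (5.96% of all genes), 9 with total counts alone (4.43%), 14 with no filter (3.27%) and 8 with a stricter filter (5.85%). It was 10 with offsets for length and GC content (6.18%) and 11 with 1 surrogate variable (4.56%).

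**Figure D5:**
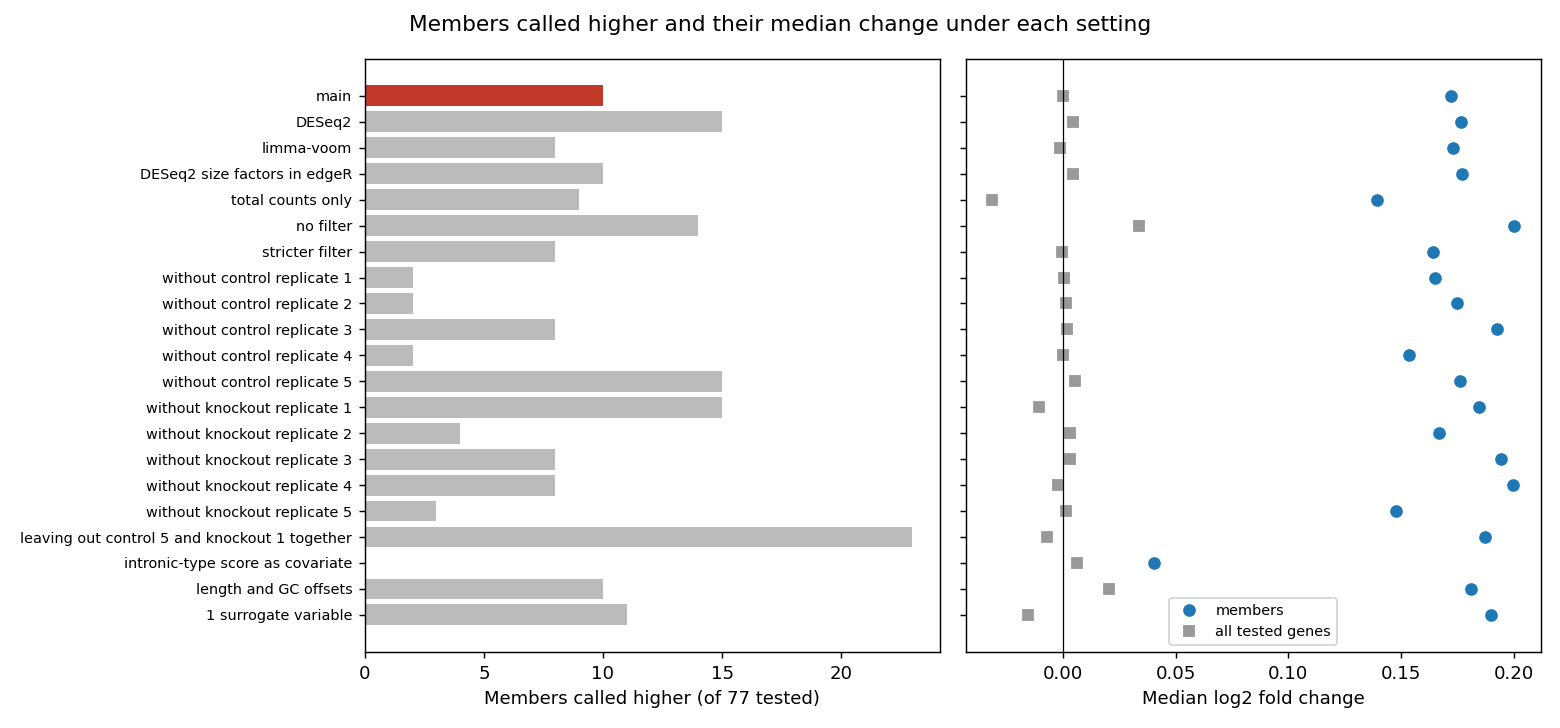
The left panel gives the number of mitochondrial ribosomal protein genes called higher, of 77 tested, under each setting, and the right panel their median log2 fold change with that of all tested genes. Counts run from 0 with the intronic-type score in the model to 23 without control 5 and knockout 1, and the members' median runs from 0.04 to 0.20.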

How the data were processed

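The authors deposited a single table of raw read counts per gene for all 10 libraries, not normalized. The submitters' processing notes name alignment and counting tools, among them STAR 2.5.2b and featureCounts 1.5.1, with DESeq2 1.16.0 and the GRCm38 build, and libraries were stranded total RNA after ribosomal RNA depletion, per the labels' protocols. No source used here gives the annotation release, the strand setting or the handling of multiply mapped reads. Symbols, biotypes and exons came from GENCODE M21 (GRCm38), which matched 52489 of 52636 identifiers.

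Genes were filtered with filterByExpr, scaled with TMM and tested in edgeR 4.0.16 (R 4.3.3) by quasi-likelihood, on both sides, with no covariate and Benjamini-Hochberg adjustment over all 15927 tested genes. A gene was called at an adjusted p below 0.05. The procedure was tested on simulated data, with libraries drawn independently and changes larger than those of the called members. That test does not cover changes as small as theirs, or differences shared between libraries. Groups follow the genotype label, and replicate numbers follow record order and pair nothing. Counting floors of 3 counts cover counting error only, since PCR copies are not independent molecules. Members and lists were chosen with earlier results of these data known, so no set test was made. Named members are those called, the 5 of largest and 5 of smallest change, the 3 of highest and 3 of lowest level per length, and the Mrps18 genes. Others with known roles were named after their values were seen. Alternatives were DESeq2 1.42.0, limma-voom (limma 3.58.1), other scalings and filters, leave-outs, length and GC offsets, 1 surrogate variable (sva 3.50.0) and the intronic-type score (genes annotated TEC or sense_intronic, mean log2 CPM with a prior count of 2).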

Additional observations from a re-analysis of the deposited data

Results flagged for a closer look

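Within groups of 5 libraries, a single library stood far from the other 4 in 4 of 44 groups examined, and chance alone does so in about 1 of 20 groups. Mrpl58 was at 31.7 CPM in knockout 5, against 25.3 to 26.9 CPM in the other knockouts. Mrpl30 was at 67.9 CPM in control 3, against 62.1 to 63.4 CPM in the other controls. Mrps21 was at 48.6 CPM in control 5, against 42.7 to 44.2 CPM. Mrps5 was at 30.4 CPM in control 4, below the 32.5 to 33.2 CPM of the other controls.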

How the results depend on the processing

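The count of 10 mitochondrial ribosomal protein genes called higher ran from 2 to 15 when 1 library was left out, and the 0 called lower held in every setting run. It was 0 with the intronic-type score in the model and 23 without control 5 and knockout 1. DESeq2, limma-voom, DESeq2 size factors, total counts, no filter, the stricter filter of 1 CPM in 5 libraries, length and GC offsets and 1 surrogate variable gave 8 to 15, and 5 of the 10 called genes were also called with length and GC offsets and 6 with the surrogate variable. The median log2 fold change of 0.17 ran from 0.15 to 0.20 over the leave-outs and moved beyond the 0.076 SD between libraries, to 0.0404, only with the intronic-type score. Without any filter, all genes' median was 0.03. Direction turned in at least 1 leave-out for 2 members above 0 and 8 below, and with the intronic-type score for 15 above and 1 below, of which 0 were called. Among the members named by rule these were Mrps34 without control 2 (0.0003, over leave-outs from -0.1647), Mrpl3 without knockout 4 (0.0176, over leave-outs from -0.0598) and with length and GC offsets (0.0016), and, with the intronic-type score, Mrpl54 (-0.0296), Mrps18b (-0.0413) and Mrps18c (-0.1542). The causes of these moves were not tested. No paired analysis was possible because the labels give no replicate numbers shared by the groups. With 5 libraries a group and counts of 47 to 1460 per tested member and library, the members' median standard error of 0.077 on the log2 scale limits which small differences can be called.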

Other observations

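Lars2, the mitochondrial leucyl-tRNA synthetase, ran from 12.5 to 1600 CPM over the 10 libraries, with means of 356 ± 696 CPM in the controls and 99.1 ± 139 CPM in the knockouts (edgeR adjusted p = 0.352). Of 5 processed pseudogenes named after mitochondrial ribosomal protein genes, none had more than 29 counts summed over all 10 libraries.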
